A study of Mus musculus with 4 samples.

Results

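Egfr, the gene of the epidermal growth factor receptor, was followed through 4 scATAC-Seq libraries of mouse hepatocytes, 1 library for each time after partial hepatectomy (PHx, surgical removal of part of the liver). It was 1 of 55450 annotated genes, and the measurement was every peak of open chromatin that touched its body or the 20 kb on either side. That window held 41, 10, 12 and 46 peaks at 0, 48, 72 and 96 h, of 119839, 158652, 164113 and 77580 peaks in the whole libraries. The gene was chosen because counts over it were far higher at 48 h than at 0 h in these same libraries, so its levels are given as a description and without a test. All animals were mice of 10 to 12 weeks on a normal diet, male C57BL/6J by the study's methods, and hepatocytes were freed by 2-step collagenase perfusion. The 0 h group was healthy liver without surgery, and the other groups were taken 48, 72 and 96 h after PHx. A single hepatocyte preparation was used for 0 h and another, of 1 mouse, for 48 h. The study's methods give 4 mice for hepatocytes at each time, but not how many stand behind the 72 and 96 h libraries. With 1 library for each time, time and library cannot be told apart, and all intervals below cover counting error only.

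EGFR is a receptor tyrosine kinase of the cell surface. It binds EGF, TGF-alpha, amphiregulin, HB-EGF and related ligands, pairs with itself or with another ERBB receptor, and passes the signal to the RAS-MAPK and PI3K-AKT pathways. Hepatocytes carry much of it, and its ligands are known mitogens of hepatocytes in the regrowing liver. In scATAC-Seq a transposase cuts DNA where chromatin is open, and the number of cuts over a gene is read as its accessibility, which is neither its RNA nor its protein.

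In the mm10 genome (GENCODE vM21) Egfr, ENSMUSG00000020122.16, lies on the plus strand at chr11:16752203-16918158, a body of 165956 bp. Its principal transcript, Egfr-201, has 28 exons, and intron 1 alone spans 106325 bp, or 64.1% of the gene. The window with flanks was chr11:16732203-16938158. Within it, 5 elements had a stretch called as peak in all 4 libraries. The sequences of 3 places are shown because the values below turn on them: the promoter, which lies inside the peak with the highest CPM of the window in every library, an upstream element with similar levels in all libraries, and an element just past the 3′ end of the gene whose level was higher at 96 h than at 0 h in a shorter peak. The promoter is the RefSeq sequence of the 250 bases before the transcription start (GRCm38.p6, plus strand, chr11:16751953-16752202). The others are the 300 bases at the centre of the stretch called in all libraries, at chr11:16742063-16742362 (upstream) and chr11:16919293-16919592 (past the 3′ end), plus strand. Capitals mark a match to any of the motifs named after the sequences.
Egfr promoter: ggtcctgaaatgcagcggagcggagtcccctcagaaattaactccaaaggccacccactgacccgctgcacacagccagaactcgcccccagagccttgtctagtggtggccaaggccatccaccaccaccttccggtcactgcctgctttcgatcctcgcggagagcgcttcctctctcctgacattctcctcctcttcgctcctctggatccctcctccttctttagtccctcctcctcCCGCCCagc
Upstream element: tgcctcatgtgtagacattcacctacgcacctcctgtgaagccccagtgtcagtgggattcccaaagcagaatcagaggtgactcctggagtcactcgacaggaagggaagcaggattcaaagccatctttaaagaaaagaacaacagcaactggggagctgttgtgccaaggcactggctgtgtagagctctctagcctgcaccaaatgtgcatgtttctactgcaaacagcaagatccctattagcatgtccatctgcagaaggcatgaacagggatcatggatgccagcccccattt
Element past the 3′ end: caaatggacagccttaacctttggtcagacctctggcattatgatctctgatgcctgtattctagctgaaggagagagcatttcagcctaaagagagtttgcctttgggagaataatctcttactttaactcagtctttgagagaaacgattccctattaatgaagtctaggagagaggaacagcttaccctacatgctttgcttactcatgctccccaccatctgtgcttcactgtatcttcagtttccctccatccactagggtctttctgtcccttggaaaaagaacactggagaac

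Each window was searched on both strands for 8 motifs: AP-1 (TGANTCA), FOXA (TGTTTAC), HNF4A (CAAAGTCCA), C/EBP (TTGCNNAA), HNF1 (a motif of 12 letters), STAT (TTCNNNGAA), TEAD (GGAATG) and the SP1 GC box (GGGCGG). The promoter held a single match, a GC box read on the minus strand that starts 9 bases before the transcription start. GC boxes were found in 35.7% of the 32851 RefSeq promoter windows of 300 bases. Neither the upstream element nor the one past the 3′ end held any of these letters. Among all 62725 windows of that length at the centre of shared stretches, 17.3% held the GC box, 16.3% C/EBP, 15.0% TEAD, 9.58% AP-1, 8.74% STAT, 5.96% FOXA, 1.47% HNF4A and 0.182% HNF1. Of the other elements with a shared stretch, the one about 13 kb upstream held 2 TEAD matches and 1 GC box, the one about 7 kb upstream held 1 C/EBP match, and the long one over the promoter and the start of intron 1 held none in its central 300 bases.

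By summed counts, accessibility over Egfr was lowest in undamaged liver, highest at 48 h, and in between at 72 and 96 h. In CPM, the counts of a library scaled to a common total in peaks, the Egfr window of undamaged liver held 414.7 (95% interval 409.9 to 419.6). The level was 2227 (2210 to 2244) in the 48 h library, 1277 (1257 to 1297) in that of 72 h and 1539 (1511 to 1567) in that of 96 h. The 48 h library was the highest and the 0 h library the lowest, and no 2 intervals overlapped. Against 0 h the level was 5.37-fold higher at 48 h, 3.08-fold at 72 h and 3.71-fold at 96 h, or 2.43, 1.62 and 1.89 on the log2 scale. These levels rest on 56641, 138081, 31571 and 22984 counts. Scaled to 158 regions of near-equal length in all libraries, the log2 ratio at 96 h was 0.97. With counts binarised for each nucleus and peak, the order of the later times turned: the log2 ratios were 0.20, 1.35 and 2.01, lowest at 48 h, where the gene lies in 2 long peaks, and highest at 96 h. The gene was chosen on the difference at 48 h, so the size of that difference supports nothing by itself.

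Peaks were called in each library on its own, so the level also moves with how much of the window was called. The peaks covered 93932 bp of the window at 0 h, 181027 bp at 48 h, 170803 bp at 72 h and 124661 bp at 96 h. Per covered kb the window of the 0 h library held 4.41 CPM (4.36 to 4.47), against 12.3 (12.2 to 12.4) for 48 h, 7.48 (7.36 to 7.59) for 72 h and 12.3 (12.1 to 12.6) for 96 h. On this scale 48 and 96 h did not differ beyond counting error, 72 h lay below both, and 0 h was the lowest. At 48, 72 and 96 h the log2 ratio per kb to 0 h came to 1.48, 0.76 and 1.48, beside 0.95, 0.86 and 0.41 for the covered length. Over protein-coding genes the median log2 ratio per kb was -0.22, 0.16 and 1.25 at these times, so most genes were denser at 96 h.

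**Figure D1:**
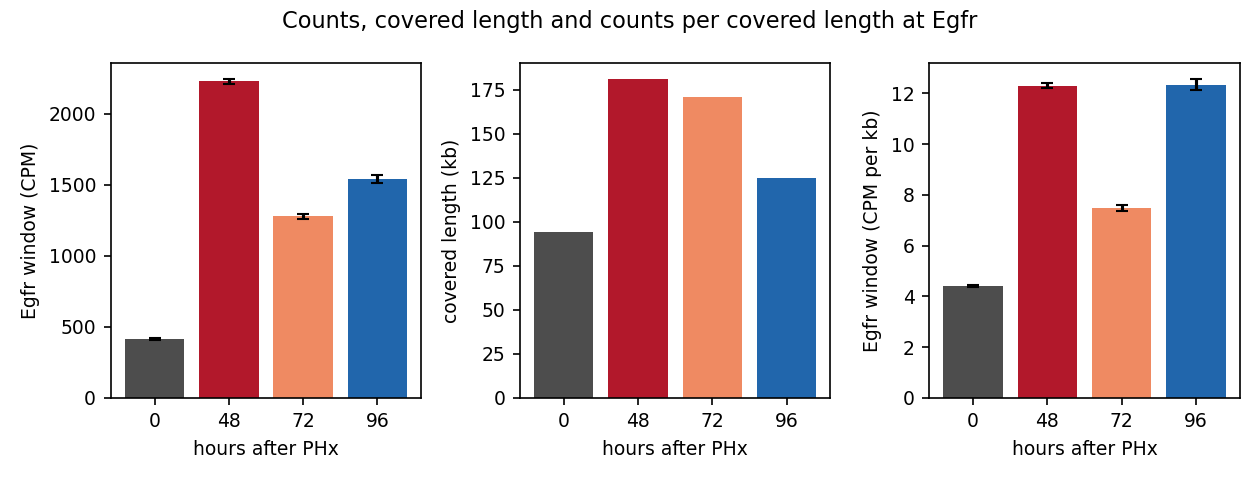
Bars show, for each library (hours after PHx), the CPM in the Egfr window, the length covered by peaks in kb, and the CPM per covered kb, with exact 95% Poisson intervals on the counts. The level is highest at 48 h (2227 CPM), the covered length is longest at 48 h (181027 bp), and the density is the same within counting error at 48 and 96 h.

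The body of the gene was called as peak almost from end to end at 48 and 72 h. Of its 165956 bp, 50.6% lay in a peak at 0 h, 99.5% at 48 h, 97.0% at 72 h and 71.4% at 96 h. Exon 1 and intron 1 were already covered for 72.5% at 0 h, and for 100%, 97.1% and 80.3% later. The stretch from exon 2 to the end of the gene, which codes for nearly all of the receptor, was covered for 11.1% at 0 h, 98.7% at 48 h, 96.9% at 72 h and 55.4% at 96 h. In covered length the later libraries thus differed from 0 h chiefly in the 3′ part. At 48 h a single peak of 128376 bp ran from position -1416, counted from the transcription start, into the body past exon 13 and ranked 2 by length among all 158652 peaks of that library. A second of 43388 bp, over exons 14 to 28 and past the 3′ end, ranked 45. At 72 h there were 6 peaks over the gene, of which the longest, 74282 bp from the promoter into intron 1, ranked 3. At 0 h the longest was 47542 bp over the promoter and the start of intron 1 (rank 45), and at 96 h it was the counterpart of that peak with 45459 bp (rank 2).

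**Figure D2:**
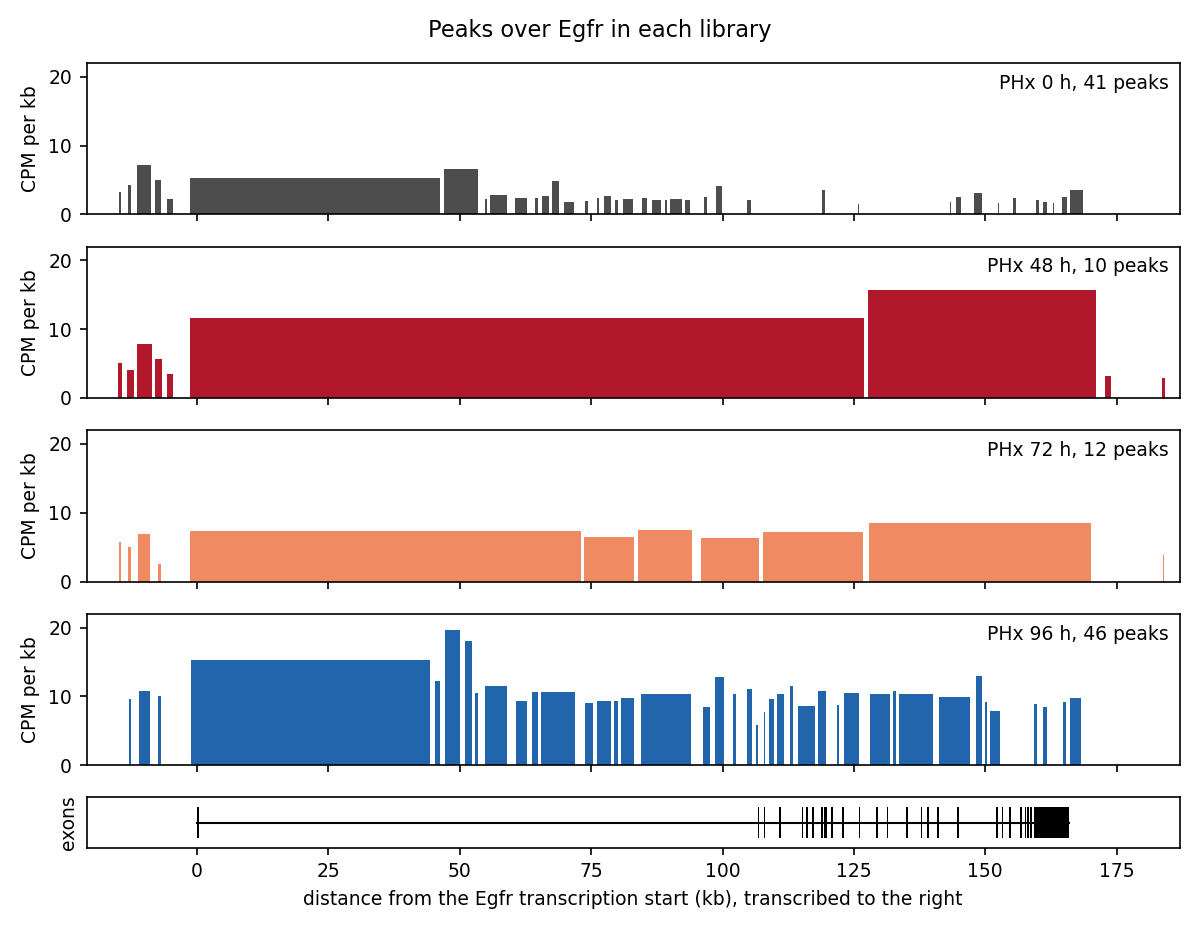
Each box is 1 peak, placed by its distance from the Egfr transcription start in kb, with a height of its CPM per kb, in the 4 libraries, above the 28 exons of Egfr-201. At 0 h the 3′ part holds small scattered peaks, while at 48 h it is filled by 1 peak of 43388 bp at 15.7 CPM per kb.

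The 5′ and 3′ parts of the gene moved by different amounts. Peaks of all libraries that touched were merged, which left 2 elements over the gene. The 5′ element, chr11:16750787-16879162, runs from the promoter through exon 13 and held 359.4 CPM at 0 h, 1498 at 48 h, 891.6 at 72 h and 1269 at 96 h. Per covered kb this was 4.53, 11.7, 7.18 and 13.0 CPM, densest at 96 h. Values per kb were higher at 96 h for most genes, with a median log2 ratio to 0 h of 1.25, against -0.22 at 48 h. The 3′ element, chr11:16879936-16923323, runs from exon 14 past the end of the gene and held 23.0, 680.2, 360.5 and 238.5 CPM. Its density was 2.75, 15.7, 8.54 and 9.98 CPM per kb, highest at 48 h. It went from the less dense of the pair at 0 h to the denser at 48 and 72 h, and was again the less dense at 96 h. In CPM the 5′ element differed from 0 h by more, by 1139, 532.2 and 909.8 at 48, 72 and 96 h, against 657.1, 337.5 and 215.5 for the 3′ element.

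Counts are known only inside peaks, so what the bases left out at 0 h held at that time is unknown. For the 5′ element to have had no difference between 0 and 48 h, the 49011 bp called only at 48 h would have needed 23.2 CPM per kb at 0 h, against 4.53 in the peaks that were called there. For the 3′ element the 35024 bp called only at 48 h would have needed 18.8 CPM per kb, against 2.75. At 72 h the values needed were 11.9 and 9.98 CPM per kb, and at 96 h they were 42.1 and 11.8. All of them hold on the CPM scale only. Regions of near-equal length held a share of counts 1.16, 1.30 and 1.89 times as high at 48, 72 and 96 h as at 0 h. On a scale that sets these equal, every value needed would be lower. Whether the bases not called at 0 h held so much was not tested.

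Some later peaks lie wholly inside a 0 h peak, so that the later library was not called over more bases there. At 96 h 8 of 8 such elements of the window were higher than at 0 h, 4 of them at least 2-fold. Over the genome 60.4% of regions of that kind were higher at 96 h and 11.4% at least 2-fold higher. The 4 were in intron 1 (6499 bp at 0 h, from 42.5 to 87.9 CPM, and 2371 bp, from 5.67 to 20.02 CPM), in intron 20 (from 5.11 to 13.4 CPM) and past the 3′ end, the element whose sequence is shown above (from 8.61 CPM, interval 7.93 to 9.34, to 20.02, interval 16.9 to 23.5). The other 4 were higher by less: 3 upstream elements differed by 0.08 to 0.45 on the log2 scale and 1 in exon 28 by 0.95. CPM also moves with the length called over the whole library, 153.6 Mb at 0 h and 60.9 Mb at 96 h. Regions of near-equal length held a share of counts 1.89 times as high at 96 h as at 0 h, and on a scale that sets these equal the 3 upstream elements were lower at 96 h than at 0 h, and none of the 8 was 2-fold higher. At 72 h all 5 such elements lay upstream of the gene and 1 was higher, by 0.82, with 29.9% higher and 0.0995% at least 2-fold higher over the genome. At 48 h the only such element, about 5 kb upstream, went from 2.56 to 3.81 CPM, with 11.2% of such regions higher over the genome.

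The peak over the promoter and the start of intron 1 could be compared between 0 and 96 h at equal length. It covered 47542 bp at 0 h and 46489 bp, in 2 peaks, at 96 h, and its level went from 252.5 to 707.1 CPM, 1.49 on the log2 scale. The median of all 1780 autosomal regions of lengths within 1.1-fold at 0 and 96 h was 1.74, and 91.0% of them were at least 2-fold higher, so the promoter peak lay below that median. Over 63379 autosomal regions with a peak at both times, of any length, the median was 0.22 and the 95th percentile 1.48. The promoter peak lay just above that percentile. A 726 bp stretch in exon 28 of near-equal length went from 1.17 CPM (0.93 to 1.46, 160 counts) to 6.16 (4.51 to 8.22, 92 counts), or 2.39. That value lay above the 95th percentile of the regions of near-equal length (2.27). It rests on few counts, and its intervals also allow ratios below that percentile. At 48 and 72 h the medians of such regions were -0.03 and 0.38. The share at least 2-fold higher was 0.0294% at 48 h and 4.90% at 72 h, and no element over the gene body had near-equal length at either time.

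At 48 h the upstream flank differed from 0 h by less than the gene. All 5 upstream elements had their highest level at 48 h, with log2 ratios of 0.17, 0.43, 0.57, 0.98 and 1.197, against 2.06 and 4.88 for the 5′ and 3′ elements of the gene. At 72 h 1 of the 5 was higher than at 0 h (0.82) and 4 were lower (-0.23, -0.24, -1.95 and -3.40), the last in a peak of 93 bp against 1158 bp. At 96 h 3 of them were called, at 0.08 to 0.45. The element about 10 kb before the start (the upstream sequence above), 2721 bp at 0 h, held 19.5 CPM (18.5 to 20.6) in undamaged liver, 21.97 (20.3 to 23.7) in the 48 h library, 16.6 (14.4 to 19.0) in that of 72 h and 21.4 (18.2 to 24.9) in that of 96 h. Its levels were highest at 48 h and lowest at 72 h, and the interval of 96 h overlapped those of the other 3. At 48 h its length was within 1.1-fold of 0 h and its log2 ratio 0.17. The other 4 upstream elements held at most 7.76 CPM in any library. Downstream, 3 small elements were called at 48 h and 1 of them also at 72 h, with at most 4.08 CPM.

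Set beside all genes, Egfr stood out at 48 h on both scales and at 96 h on one. Over the gene body and the 2 kb upstream, the level was 373.8, 2179, 1252 and 1488 CPM, and the log2 ratio of (CPM + 1) to 0 h was 2.54, 1.74 and 1.99 at 48, 72 and 96 h. Among 15083 protein-coding autosomal genes with a mean of at least 5 CPM, 5.40%, 10.2% and 5.04% were at least 2-fold higher at these times. Egfr ranked 76, 436 and 42 from the top. With the change in covered length taken off, its log2 ratio per kb was 1.53 at 48 h, rank 1 of 15055 genes with a peak at both times, against a median of -0.22. At 72 h it was 0.78, rank 515 of 15048, with a median of 0.16. At 96 h it was 1.502, rank 4067 of 14914, with a median of 1.25, since per kb values were higher at 96 h for most genes. The 48 h rank comes from the contrast on which the gene was chosen. The ratios at 72 and 96 h use the same 0 h library, so their ranks are not independent of that choice.

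**Figure D3:**
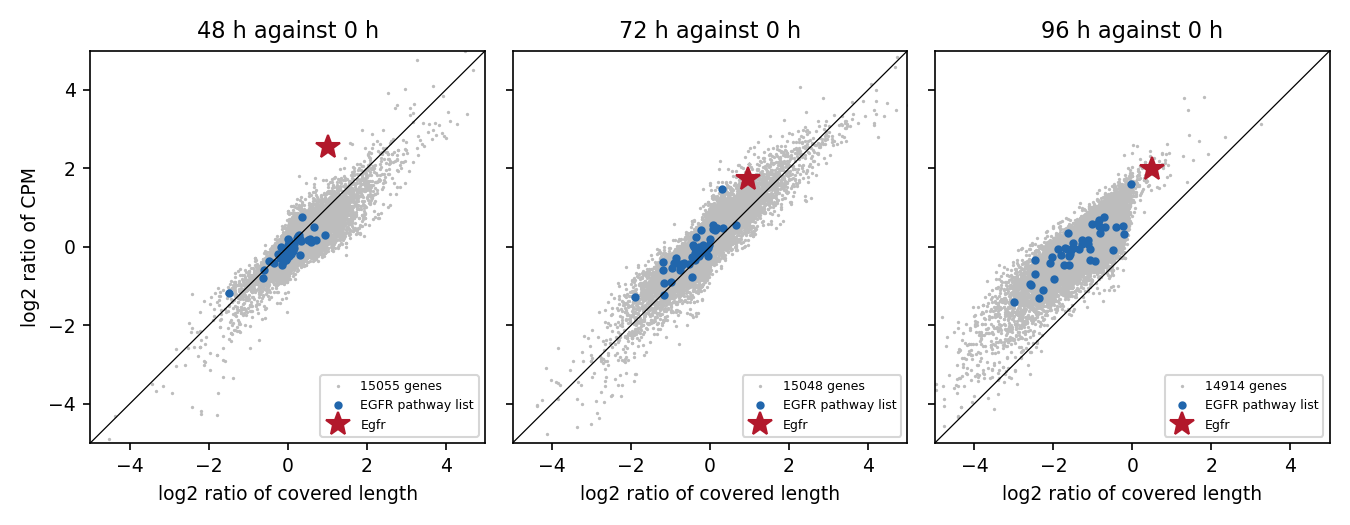
Each grey point is a gene, with the log2 ratio of its covered length to 0 h across and the log2 ratio of its CPM up; blue points are the EGFR pathway list, the star is Egfr, and the line marks equal change of both. By height Egfr ranks 76, 436 and 42 at 48, 72 and 96 h, and by distance above the line 1, 515 and 4067.

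The higher level at 48 h was spread over most nuclei. Nuclei were barcodes with at least 1000 counts in peaks, 3977, 3892, 4256 and 3224 in the 4 libraries. Each nucleus was thinned to 1000 counts, so that libraries of different depth could be set side by side. Of nuclei at 0 h, 31.4% (29.9% to 32.8%) then had any count in the Egfr window, against 78.9% (77.6% to 80.2%) of those at 48 h, 59.9% (58.4% to 61.4%) of those at 72 h and 66.1% (64.4% to 67.7%) of those at 96 h. The order of the libraries was that of the CPM levels. Without thinning the shares were 85.7%, 93.2%, 81.7% and 83.1%, and 0 h, the deepest library, stood above 72 and 96 h. At 3000 counts they were 64.3%, 95.8%, 86.2% and 90.4%. Over nuclei of at least 3000 counts the median level was 372, 2193, 1154 and 1401 CPM per nucleus, and the middle part of the distribution, from the 25th to the 75th percentile, was 231 to 554 CPM in the 0 h library, 1420 to 3067 in the 48 h library, 563 to 1859 in the 72 h library and 744 to 2140 in the 96 h library. The ranges of 0 and 48 h did not overlap, in the contrast on which the gene was chosen. Thinning evens out depth but not the called length, and peaks took up more of the window at 48 h. Shares and CPM per nucleus both count cuts inside peaks only, so they can move with that length. How much of the difference between nuclei of 0 and 48 h comes from it was not tested.

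Within a library the CPM level differed little with depth, while the share of nuclei was lower in shallow nuclei. With the nuclei of each library split by depth into 4 equal groups, the level lay between 403 and 432 CPM in undamaged liver, between 2119 and 2438 in the 48 h library, between 1123 and 1383 in that of 72 h and between 1451 and 1640 in that of 96 h. At 1000 counts the shallowest group had an Egfr count in 26.2% of nuclei at 0 h, against 32.7% to 33.8% in the other 3 groups. In the 48 h library this was 66.1% against 82.8% to 83.4%, in that of 72 h 48.4% against 62.5% to 65.0%, and in that of 96 h 57.3% against 65.5% to 70.9%. Median counts per nucleus were 26005, 11629, 4841 and 3681.5. Some barcodes occur in more than 1 library: 877 nuclei (22.1%) of the 0 h library, 237 (6.09%) of 48 h, 125 (2.94%) of 72 h and 123 (3.82%) of 96 h. Those of 0 and 48 h were deep, with medians of 72341 and 45764 counts. Without these nuclei the log2 ratios to 0 h were 2.41, 1.60 and 1.87, and the shares 31.0%, 78.9%, 60.2% and 66.4%.

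Most nuclei were hepatocyte-like, and Egfr was higher in them than in the rest. Each library was clustered on its own peaks outside chromosome 11, so Egfr took no part. Clusters in which 12 hepatocyte markers had a median log2 level below -1 against the other clusters of the library were set apart as hepatocyte-low, a limit set after the clusters were seen. They held 299 nuclei at 0 h, 217 at 48 h and 321 at 72 h (7.52%, 5.58% and 7.54%). At 96 h none separated. Against the other clusters, each hepatocyte-low cluster had 3 to 6 endothelial markers up by 2-fold or more, and up to 4 markers of Kupffer and other myeloid cells. At 1000 counts, 12.9% of hepatocyte-low nuclei had an Egfr count at 0 h (9.44% to 17.4%), 18.8% at 48 h (13.9% to 24.7%) and 22.5% at 72 h (18.0% to 27.4%), against 32.9%, 82.4% and 63.0% of hepatocyte-like nuclei. Their median depth was 3497, 2053 and 1691 counts, against 28510.5, 12451 and 5156. By CPM the hepatocyte-low nuclei held 230, 549 and 473, against 417, 2248 and 1301. The shares of hepatocyte-like nuclei lay above those of hepatocyte-low nuclei in all 3 libraries. The hepatocyte-low values differed between libraries too, and these nuclei were shallower, so they give no fixed background.

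**Figure D4:**
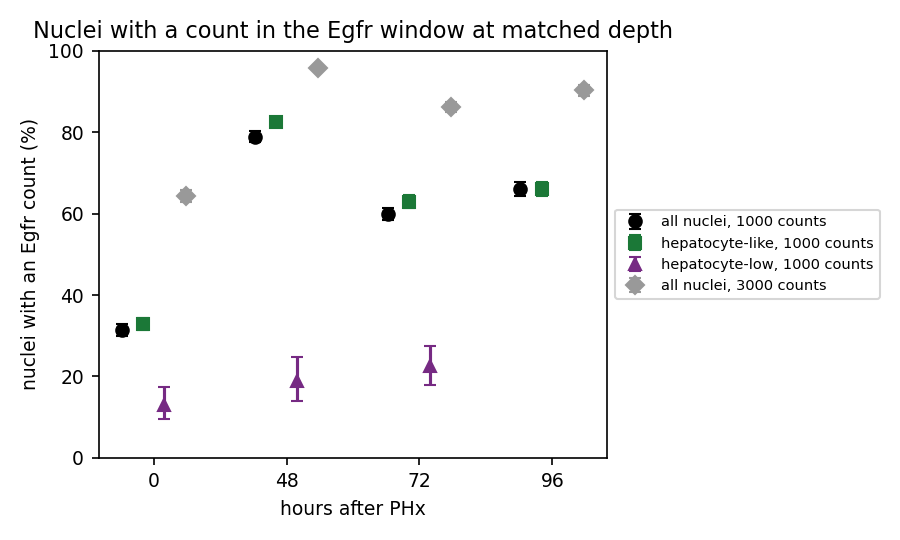
Points show the percentage of nuclei with a count in the Egfr window after thinning to 1000 or 3000 counts, for all nuclei and by class, with exact 95% binomial intervals, against hours after PHx. Hepatocyte-like nuclei are at 32.9% at 0 h and 82.4% at 48 h, and hepatocyte-low nuclei lie between 12.9% and 22.5%.

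Hepatocyte-like nuclei of 1 time were not uniform. At 0 h the 4 clusters held 465, 483, 359 and 358 CPM. The third of them, with 642 nuclei, was higher in 12 of 13 pericentral genes and lower in 13 of 13 periportal genes, lists of hepatocyte zonation from the central to the portal vein that were chosen after the clusters were seen. Egfr was lower there by 0.32 on the log2 scale than in the other hepatocyte-like clusters of the library. Of its nuclei 62.5% carry a barcode found in another library, against 2.84%, 52.9% and 10.1% in the other 3, and without such nuclei the 4 clusters held 466, 489.3, 364.2 and 364.6 CPM. The last cluster of 0 h was lower by 0.25 with no such pattern, 6 of 13 pericentral and 7 of 13 periportal genes being higher. At 48 h a cluster with 10 of 13 pericentral and 0 of 13 periportal genes higher held 2466 CPM, below the 2770 of a cluster with 2 of 13 pericentral and 10 of 13 periportal genes higher, while their shares at 1000 counts were 88.7% and 87.0%. Against all other hepatocyte-like clusters of 48 h, Egfr was higher by 0.22 in the first of these, the opposite direction to the pericentral cluster of 0 h. At 96 h a cluster with 13 of 13 periportal genes higher held 1961 CPM, and one with 1 of 13 held 1445. The pericentral list did not separate them, with 5 and 7 of 13 genes higher and medians of -0.07 and 0.08. Also at 48 h, 1 cluster of 773 nuclei held 1365 CPM, against 2323 to 2770 in the other 3. At 72 h a cluster of 1084 nuclei held 845 CPM against 1579 in the other, and at 96 h a cluster of 294 held 754 against 1445 and 1961. In CPM the lowest of these later hepatocyte-like clusters lay above every cluster of 0 h. This did not hold on another scale: with regions of near-equal length set equal, the low cluster of 96 h fell below the 2 highest of 0 h. The low clusters of 48 and 72 h had 64.7% and 46.7% of nuclei with an Egfr count at 1000 counts, and that of 96 h had 38.4% (32.8% to 44.3%), against 37.8% (34.2% to 41.6%) in the highest cluster of 0 h. Of 13 pericentral genes 4, 9 and 4 were higher in them than in the other hepatocyte-like clusters, and of 13 periportal genes 8, 4 and 4. The mean GC content of peaks, weighted by counts, was higher in them than in the other hepatocyte-like clusters of the same library. It was 49.2% against 48.6% to 48.9% at 48 h, 50.3% against 49.9% at 72 h and 53.1% against 52.1% and 52.2% at 96 h. Peaks over Egfr had 42.0% to 43.1%. The median log2 level of the 12 hepatocyte markers against the other clusters of the library was -0.21, -0.24 and -0.59 in the low clusters of 48, 72 and 96 h. That of the biliary markers was 0.22, 0.14 and 0.73, with 1 of 4, 0 of 4 and 1 of 3 up by 2-fold or more. Kupffer markers were at -0.05, -0.09 and 0.69 with none up by 2-fold, and 1 of 9 endothelial markers was up by 2-fold at 96 h. The part of base composition and of other cell types in these differences was not tested. Over whole libraries this mean GC content of the called peaks, weighted by counts, was 48.8%, 48.8%, 50.1% and 52.2%. The composition of the sequenced fragments themselves was not measured.

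**Figure D5:**
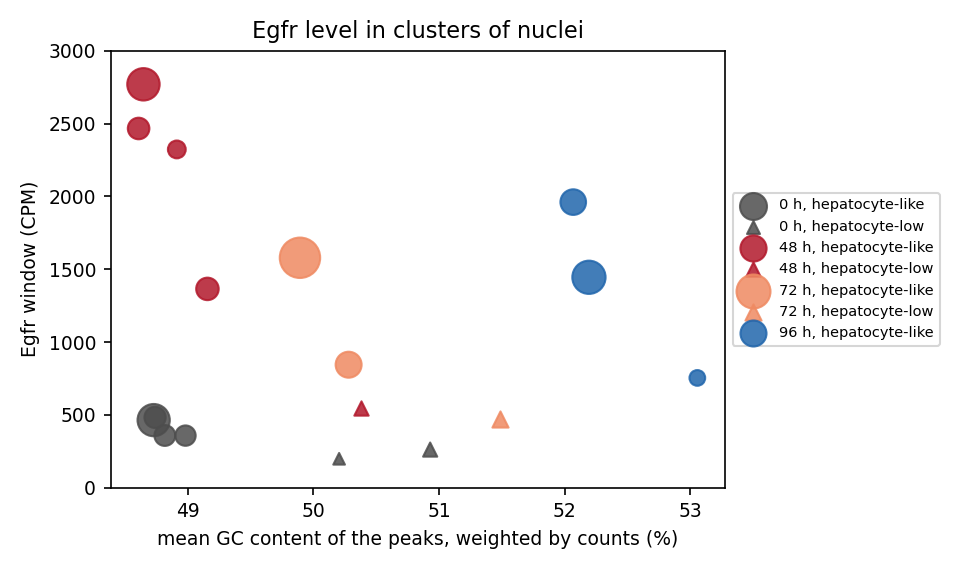
Each point is 1 cluster of nuclei, with the mean GC content of peaks, weighted by its counts, in percent across. The CPM in the Egfr window is up, the area grows with the number of nuclei, and triangles are hepatocyte-low clusters. The 3 highest clusters are of 48 h, and in each later library 1 hepatocyte-like cluster lies below the other hepatocyte-like clusters of that library, at a higher GC content.

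The other genes of the EGFR pathway are given by their counts, which are small. The list held 45 genes besides Egfr, of which 42 had a mean of at least 5 CPM; the receptor gene Erbb2 and the ligand genes Ereg and Epgn did not. Of the 42, 0, 1 and 1 were at least 2-fold higher at 48, 72 and 96 h, and 1, 2 and 3 at least 2-fold lower, with medians of -0.10, -0.17 and -0.05 on the log2 scale beside -0.03, -0.01 and 0.07 for all genes. Of all genes, 5.40%, 10.2% and 5.04% were at least 2-fold higher and 1.91%, 5.99% and 8.88% at least 2-fold lower, so the counts of the list are read as no result about the pathway.

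Among the receptors, Erbb3, which signals through a partner since its kinase is weak, had log2 ratios of -0.43, -0.53 and -0.02, and Erbb4 0.04, 0.04 and 0.18. Of the ligands with a level, Egf, Tgfa, Hbegf, Areg, Btc, Nrg1 and Nrg4, none reached 2-fold at any time. Areg, the gene of amphiregulin, held 13.0, 13.7, 15.8 and 22.9 CPM, and Hbegf 31.1, 34.6, 43.8 and 48.1 CPM. Tgfa was nearly level, at 0.08, 0.00 and -0.04.

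Downstream of the receptor, Map2k2, the gene of the kinase MEK2, had log2 ratios of -0.26, -1.23 and -1.32 at 48, 72 and 96 h. Grb2, the gene of the adaptor that couples the receptor to RAS, was at -1.11 at 96 h. The covered length of Map2k2 and Grb2 had log2 ratios of -2.38 and -2.25 at 96 h. Among the inhibitors, Spry2, a brake on RAS-MAPK signaling, held 14.1, 24.5, 41.0 and 44.9 CPM, with log2 ratios of 0.75, 1.47 and 1.60. Its relative Spry4 held 112, 48.8, 45.8 and 56.7 CPM, with ratios of -1.18, -1.27 and -0.97. The covered length of Spry4 had log2 ratios of -1.49, -1.91 and -2.57, so per covered kb it was higher than at 0 h at each time, as Map2k2 and Grb2 were at 96 h. The median gene was also higher per kb at 96 h, by 1.25, and Map2k2 and Grb2 lay below that median. Errfi1, whose product binds and inhibits the EGFR kinase, had ratios of 0.19, -0.04 and 0.54, and Dusp6, an ERK phosphatase, had its lowest ratio, -0.78, at 72 h.

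The genes around Egfr did not share its pattern. Within 1 Mb there were 9 other protein-coding genes, of which Plek and Cnrip1 were under 5 CPM. Sec61g, 243719 bp upstream, had log2 ratios of 0.19, -0.06 and 0.69, and Fbxo48, 33217 bp downstream and the nearest, 0.29, -0.02 and 0.54. Vstm2a, 324893 bp upstream, was the exception with 9.18, 18.4, 30.6 and 25.9 CPM and ratios of 0.93, 1.63 and 1.40, highest at 72 h and not at 48 h. Ppp3r1, Wdr92, Pno1 and C1d stayed between -0.45 and 0.42.

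By the distance between the 3 log2 ratios, the genes most like Egfr were Foxe1, Lvrn, Hpx, Zic2 and Prima1, at 0.81 to 0.84. Hpx, the gene of the plasma protein hemopexin that hepatocytes secrete, was the only one of them with a high level, 168.6, 593.6, 507.3 and 865.3 CPM. Its covered length had log2 ratios of 0.29, -0.01 and -0.20, and its level was highest at 96 h, not at 48 h. The others were low genes, of which Foxe1 held 1.38, 12.2, 11.2 and 5.56 CPM.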

How the data were processed

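Nuclei of perfused hepatocytes were profiled by droplet scATAC-Seq, with 1 library at each of 4 times. The deposited values are whole-number counts of transposase cut sites for each peak and barcode, made by the authors with Cell Ranger ATAC (1.1.0 in the file headers; mm10 in the submitters' processing notes), which aligned reads, removed duplicates and called peaks in each library separately. The sources used here give no cutoffs for the study's filter on nuclei. Total counts were 136949314, 62553202, 25540258 and 15809769 at 0, 48, 72 and 96 h.

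Barcodes with at least 1000 counts were kept as nuclei, and no doublet caller was run. Between 87.3% and 88.6% of matrix values were even, since both ends of a fragment count, so exact 95% Poisson intervals were taken on counts divided by 2. Counts were summed for each library and divided by all counts in peaks of its nuclei (CPM). The share of nuclei at matched depth is the expected share after drawing 1000 counts from each nucleus, with an exact 95% binomial interval (Clopper-Pearson). Gene values sum all peaks that touch the body and 2 kb upstream (GENCODE vM21), with a pseudocount of 1 CPM in ratios and a mean of at least 5 CPM. Clusters used TF-IDF, 30 singular value components without the first, 30 neighbours and Leiden resolution 0.5 (scikit-learn 1.9.0, leidenalg 0.10.2, Python 3.11.15). No test was run, as each time has 1 library. The CPM and share calculations were tested on simulated data. Sequences came from the RefSeq tables and genome (GRCm38.p6), read with pysam 0.24.0.

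Egfr and the gene lists were chosen with earlier results of these data known. Genes named are Egfr, pathway members past 2-fold at any time, neighbours within 1 Mb and the 5 genes nearest to Egfr by Euclidean distance over the 3 log2 ratios; further pathway members were named for their role after their values were seen. One pathway member, included in the counts and medians of the list, is not reported here by name. Alternatives changed the minimum count, the deepest 5% of nuclei, the class of nuclei, the scaling, the window, binarised counts, the matched depth, the pseudocount and the filter. Leaving out nuclei with a barcode in another library was chosen after seeing the data.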

Additional observations from a re-analysis of the deposited data

How the results depend on the processing

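No paired analysis was possible because each time point has 1 library. In all 11 alternatives the Egfr window was above 0 h at each of the 3 times. At any single time 10 of the 11 gave at least 1 on the log2 scale, and the exception was binarised counts at 48 h, the density per kb at 72 h and the near-equal regions at 96 h. The ratios at 48, 72 and 96 h were 2.50, 1.68 and 1.79 when scaled to shared autosomal regions, and 2.21, 1.25 and 0.97 when scaled to 158 regions of near-equal length. They were 2.54, 1.74 and 1.99 over the gene body, and 2.54, 1.74 and 1.99 with 2 kb upstream added. Per covered kb they were 1.48, 0.76 and 1.48. With counts binarised for each nucleus and peak they were 0.20, 1.35 and 2.01; a nucleus can then add at most 10 at 48 h, where the gene lies in 2 long peaks, and 41 at 0 h. A minimum of 3000 counts, no minimum, leaving out the deepest 5% of nuclei, hepatocyte-like nuclei alone and leaving out shared barcodes moved no ratio beyond its counting interval.

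The share of nuclei with an Egfr count at 0, 48, 72 and 96 h was 64.3%, 95.8%, 86.2% and 90.4% at 3000 counts and 85.7%, 93.2%, 81.7% and 83.1% without thinning. In hepatocyte-like nuclei it was 32.9%, 82.4% and 63.0% at 0, 48 and 72 h, and over the gene body 28.8% at 0 h. The genes at least 2-fold higher numbered 815, 1544 and 760 at 48, 72 and 96 h, 443, 1023 and 339 with a pseudocount of 5 CPM, and 1329 and 2381 at 48 and 72 h without the filter.

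Depth fell from 26005 counts in the median nucleus at 0 h to 3681.5 at 96 h, so what was called as a peak at 96 h rests on fewer counts. Counts outside peaks were not analysed here, and counts within a long peak cannot be placed within it. No replicate gives the spread between animals.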
